A study of Mus musculus with 20 samples.

Results

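The 8 genes described here, *Dusp1*, *Dusp2*, *Dusp4*, *Dusp5*, *Dusp6*, *Dusp7*, *Dusp10* and *Dusp16*, encode MAP kinase phosphatases. They were chosen by symbol among the 55487 genes of a count table, and all 8 passed the filter on low counts that left 12799 genes for testing. RNA-seq libraries came from 20 cultures of BV-2, a mouse microglial cell line, in 4 groups of 5: young untreated, young LPS-treated, aged untreated and aged LPS-treated. Young (control) cells were at low passage and aged cells came from long-term cultivation of the same line. LPS, a bacterial Toll-like receptor 4 ligand, was given at 100 ng/ml for 6 hours. All groups were labelled wild type and shared medium and serum. BV-2 cells were immortalized with a retrovirus that carries v-raf and v-myc, and Raf kinases act upstream of ERK. The cultivation lasted more than 100 days, after which the authors froze the aged cells and took aliquots for experiments. The sources used here do not say whether the 5 aged cultures go back to more than 1 long-term cultivation. Each replicate number is a batch that holds 1 culture of every group.

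MAP kinases (ERK, JNK and p38) are switched on when kinases upstream phosphorylate a threonine and a tyrosine in their activation loop, and MAP kinase phosphatases remove both phosphates. In macrophages and microglia, LPS activates all 3 kinase families within minutes, and several of the phosphatases are themselves transcribed in response, which makes them feedback inhibitors of cytokine production. *Dusp1*, *Dusp2*, *Dusp4* and *Dusp5* encode nuclear, inducible enzymes; *Dusp5* acts on ERK, while the others also accept JNK or p38. *Dusp6* and *Dusp7* encode cytoplasmic enzymes selective for ERK. *Dusp10* and *Dusp16* encode enzymes that prefer JNK and p38.

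Libraries held 11371508 to 16829292 counts in total, and mitochondrial genes took 0.517% to 1.30% of them. Of 10 microglial markers none was at the floor of 3 counts in every library, although *P2ry12* and *Cx3cr1* were low, with group means of at most 1.18 and 1.05 CPM (counts scaled to library size). The summed CPM of the 10 markers ranged from 2412 to 3387 in young untreated, 2925 to 4030 in young LPS-treated, 2075 to 2989 in aged untreated and 2578 to 3573 in aged LPS-treated libraries. The sum hides single markers, which went both ways. In this order of groups, *Tmem119* had means of 17.8, 2.31, 18.0 and 3.48 CPM and *P2ry12* of 1.18, 0.201, 0.836 and 0.0733 CPM. Means of *Spi1* (278, 654, 246 and 541 CPM) and *Ptprc* (169, 335, 160 and 242 CPM) were higher with LPS. Those of *Aif1* (13.6, 12.5, 6.15 and 5.16 CPM) were lower in the aged groups. Markers of fibroblasts were at the floor in every library for 6 of 6 genes, those of neurons for 5 of 6 and those of astrocytes and oligodendrocytes for 4 of 6 each. The neuronal markers *Snap25*, *Syt1* and *Stmn2*, the astrocyte markers *Aqp4*, *Aldh1l1* and *Gja1* and the oligodendrocyte markers *Mog* and *Olig1* had 0 counts. In bulk libraries, a change in the share of cells that express a gene cannot be told apart from a change in the amount of RNA per cell.

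Proximal promoters are shown because 6 of the 8 genes rose together after LPS and 2 fell. RefSeq windows on build GRCm38.p6 were at hand for 7 of the genes, all but *Dusp4*. The window of *Dusp10*, which rose and held no match, was searched but is not printed. Each sequence is the 250 bases before the start site, written 5′ to 3′ on the strand of the gene. Capitals mark matches, on both strands, to the cyclic AMP response element (CRE, TGACGTCA), its half-site (TGACG), the E-box (CACGTG), the AP-1 motif (TGANTCA), the NF-kB motif and the CArG box of serum response factor. A full CRE contains half-sites on both strands.

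Dusp1 (chr17:26508473-26508722, minus strand): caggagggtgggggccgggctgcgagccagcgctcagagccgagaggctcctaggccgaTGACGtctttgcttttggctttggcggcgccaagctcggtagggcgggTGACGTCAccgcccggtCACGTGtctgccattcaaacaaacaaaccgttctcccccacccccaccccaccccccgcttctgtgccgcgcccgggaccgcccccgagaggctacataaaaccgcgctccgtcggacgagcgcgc

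Dusp2 (chr2:127335909-127336158, plus strand): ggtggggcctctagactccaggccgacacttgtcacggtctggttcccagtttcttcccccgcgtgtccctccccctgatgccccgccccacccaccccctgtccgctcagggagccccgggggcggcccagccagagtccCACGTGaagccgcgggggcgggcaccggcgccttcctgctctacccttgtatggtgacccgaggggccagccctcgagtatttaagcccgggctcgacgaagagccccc

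Dusp5 (chr19:53528895-53529144, plus strand): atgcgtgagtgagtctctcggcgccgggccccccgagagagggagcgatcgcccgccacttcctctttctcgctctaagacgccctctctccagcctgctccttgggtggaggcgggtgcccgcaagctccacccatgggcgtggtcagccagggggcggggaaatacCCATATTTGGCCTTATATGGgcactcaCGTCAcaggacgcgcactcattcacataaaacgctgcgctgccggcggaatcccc

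Dusp16 (chr6:134792629-134792878, minus strand): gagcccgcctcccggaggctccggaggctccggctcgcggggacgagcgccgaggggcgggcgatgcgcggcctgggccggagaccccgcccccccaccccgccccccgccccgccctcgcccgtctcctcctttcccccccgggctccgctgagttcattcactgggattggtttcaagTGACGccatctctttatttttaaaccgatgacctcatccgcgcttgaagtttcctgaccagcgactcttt

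Dusp6 (chr10:99262981-99263230, plus strand): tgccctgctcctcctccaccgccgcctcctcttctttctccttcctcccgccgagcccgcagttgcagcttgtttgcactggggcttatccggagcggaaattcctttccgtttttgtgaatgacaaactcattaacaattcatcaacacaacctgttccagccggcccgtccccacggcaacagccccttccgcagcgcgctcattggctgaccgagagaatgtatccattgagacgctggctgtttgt

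Dusp7 (chr9:106368382-106368631, plus strand): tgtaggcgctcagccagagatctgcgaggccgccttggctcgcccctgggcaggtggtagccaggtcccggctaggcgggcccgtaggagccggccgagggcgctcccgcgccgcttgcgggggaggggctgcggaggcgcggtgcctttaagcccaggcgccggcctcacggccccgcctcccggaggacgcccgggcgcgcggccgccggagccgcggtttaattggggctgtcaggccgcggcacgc

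The *Dusp1* window held a full CRE at positions -143 to -136 from the start site, a separate half-site and an E-box. A full CRE was in 1.55% of 32851 mouse promoter windows of this length and an E-box in 6.02%. *Dusp5* held 2 adjacent CArG boxes, a motif found in 1.47% of windows, and a CRE half-site. Half-sites were in 3 of the 7 windows, those of *Dusp1*, *Dusp5* and *Dusp16*, against 17.8% of all windows. *Dusp2* held an E-box. The windows of *Dusp6*, *Dusp7* and *Dusp10* held no match, which says only that these letters are not in these bases. Of these genes *Dusp10* rose after LPS and the others fell. No window held an AP-1 (6.75% of all windows) or an NF-kB match (3.90%).

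**Figure D1:**
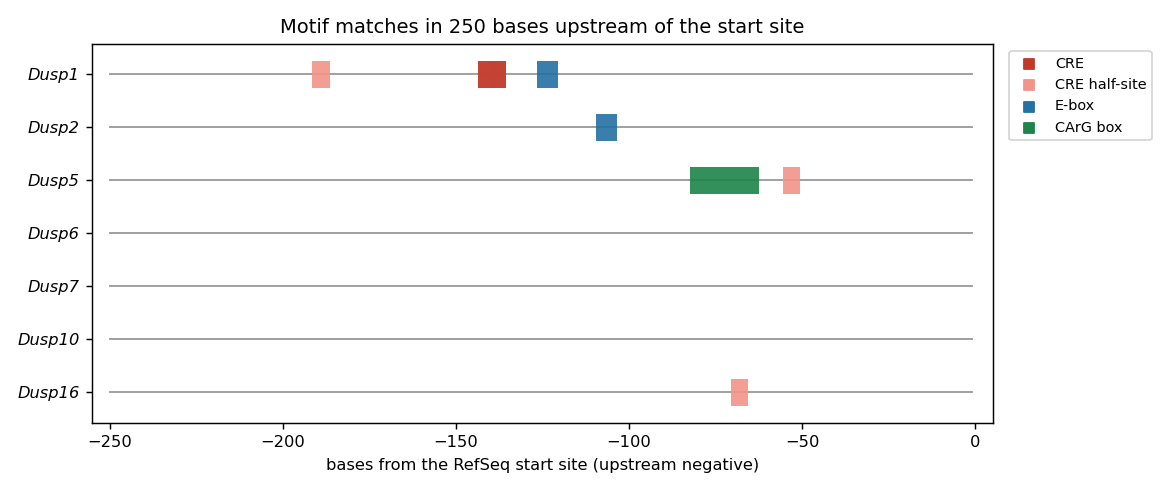
Positions of motif matches in the 250 bases upstream of the RefSeq start site of 7 genes; the horizontal axis is the distance from the start site in bases and each coloured block is 1 match. The full CRE of *Dusp1* lies at -143 to -136, and no block stands on the lines of *Dusp6*, *Dusp7* and *Dusp10*.

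The 3′ ends of these mRNAs were read for the pentamer ATTTA, the core of AU-rich elements, which proteins such as tristetraprolin bind to speed mRNA decay. Per kb of the longest annotated 3′ untranslated region, *Dusp2* had 6.88 and *Dusp1* had 5.80 pentamers, above 97.6% and 96.1% of 10497 tested genes. *Dusp10* had 2.70 per kb, *Dusp4* 1.80, *Dusp16* 1.24, *Dusp5* 0.902 and *Dusp6* 0.840, and the median over all genes was 1.36. *Dusp7* had none in 1778 bases, as had 28.2% of genes. The 30 bases of *Dusp1*, *Dusp10* and *Dusp16* in which pentamers overlap are shown with the stretch of *Dusp2* that holds 2 of its 4, on build GRCm38, with the pentamers in capitals.

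Dusp1 (chr17:26506156-26506185, minus strand): gctggtccttATTTATTTAacacccccctc

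Dusp2 (chr2:127337998-127338027, plus strand): aaattaATTTAattaattaATTTActatat

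Dusp10 (chr1:184075517-184075546, plus strand): aaaaacaaaaATTTATTTAaaaaatatttt

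Dusp16 (chr6:134715961-134715990, minus strand): gtaagatgtaATTTATTTAagaatgaaaac

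All 8 genes changed after LPS in both young and aged cells, 6 upwards and 2 downwards. A gene is called changed where the Benjamini-Hochberg adjusted p of edgeR's quasi-likelihood test over all tested genes was below 0.05. In young cells 64.6% of all tested genes were called (31.2% higher and 33.5% lower), and in aged cells 54.4% (27.5% higher and 26.9% lower). The LPS-treated and untreated libraries did not overlap for 8 of the 8 genes at either age, against 49.1% of all genes in young and 40.1% in aged cells. The median log2 fold change of the 8 genes was 1.96 in young and 1.73 in aged cells, beside -0.011 and 0.0005 over all genes. These comparisons only describe the 8 genes, which were chosen with earlier results of these data known.

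*Dusp1*, whose product terminates p38 and JNK signalling in macrophages, rose most of the 8. Its level, scaled by TMM library size, was 9.24, 6.58, 6.22, 4.88 and 5.06 CPM in young untreated libraries 1 to 5, and 62.2, 61.6, 61.5, 44.9 and 52.5 CPM in the young LPS-treated ones. In aged cells it was 3.56, 4.51, 4.97, 3.30 and 3.53 CPM without LPS and 32.8, 25.2, 29.9, 21.1 and 30.7 CPM with it. Every LPS-treated library lay above every untreated one, and every aged LPS-treated library lay below every young LPS-treated one. The rise was 8.84-fold in young (log2 fold change 3.14 ± 0.15, SE, edgeR adjusted p = 3.94e-14) and 7.04-fold in aged cells (log2 fold change 2.81 ± 0.16, edgeR adjusted p = 1.62e-12; n = 5 per group). *Dusp1* shares 11 exonic bases with *Ergic1* on the opposite strand, which had 2199 to 3648 counts.

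*Dusp5*, the ERK-selective member of the nuclear group, rose 5.77-fold in young cells and 4.17-fold in aged cells. Young untreated libraries 1 to 5 held 6.83, 8.31, 9.24, 7.12 and 6.86 CPM, and young LPS-treated libraries 38.6, 56.0, 58.8, 33.0 and 35.5 CPM. Aged untreated libraries held 5.50, 6.53, 8.51, 6.15 and 6.39 CPM and aged LPS-treated libraries 30.1, 25.5, 28.8, 26.9 and 26.9 CPM. Young LPS-treated libraries 2 and 3 were high within their group, and all 5 lay above the aged LPS-treated ones. The log2 fold changes were 2.53 ± 0.15 in young (edgeR adjusted p = 1.45e-12) and 2.06 ± 0.16 in aged cells (edgeR adjusted p = 1.37e-10). An antisense gene shares 547 exonic bases with *Dusp5* but had at most 4 counts in any library.

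*Dusp2*, a nuclear phosphatase known from activated lymphocytes and myeloid cells, rose 4.39-fold in young and 3.32-fold in aged cells. Libraries 1 to 5 held 27.3, 28.6, 31.0, 27.96 and 28.5 CPM in the young untreated group and 112, 134, 152, 109 and 122 CPM in the young LPS-treated group. The aged untreated group held 32.6, 35.5, 30.5, 38.1 and 33.0 CPM and the aged LPS-treated group 117, 115, 106, 105 and 119 CPM. Aged libraries were higher in 4 of 5 batches without LPS and lower in 4 of 5 with it, and they overlapped the young ones in both states. The log2 fold changes were 2.13 ± 0.081 (edgeR adjusted p = 6.46e-16) and 1.73 ± 0.080 (edgeR adjusted p = 2.97e-14).

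*Dusp4*, the fourth gene of the nuclear group, rose at both ages. Young LPS-treated libraries spanned 135 to 140 CPM from an untreated range of 35.2 to 48.1 CPM, a 3.45-fold rise (log2 fold change 1.79 ± 0.073, edgeR adjusted p = 1.86e-15). Aged libraries went from 40.7 to 48.5 CPM without LPS to 110 to 135 CPM with it, a 2.80-fold rise (log2 fold change 1.49 ± 0.072, edgeR adjusted p = 6.57e-14).

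*Dusp16*, whose product prefers JNK and p38, had the smallest standard error of the 8 in the LPS response at both ages. It rose 4.86-fold in young cells, from a mean of 13.4 ± 0.86 CPM (SD, n = 5) to 65.3 ± 4.04 CPM (log2 fold change 2.28 ± 0.069, edgeR adjusted p = 1.46e-17). In aged cells it rose 4.30-fold, from 14.5 ± 1.52 to 62.6 ± 2.55 CPM (log2 fold change 2.10 ± 0.068, edgeR adjusted p = 6.56e-17). The ranges of young and aged libraries overlapped in both states.

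*Dusp10*, the other JNK and p38 phosphatase, was close to the limit of detection, with 3 to 36 counts per library, and aged untreated library 2 was at the floor of 3 counts. It rose 2.25-fold in young cells, from 0.483 to 1.25 CPM to 1.28 to 2.65 CPM (log2 fold change 1.17 ± 0.28, edgeR adjusted p = 0.00102). The rise in aged cells was 3.32-fold, from 0.202 to 0.866 CPM to 1.57 to 2.31 CPM (log2 fold change 1.73 ± 0.29, edgeR adjusted p = 2.83e-05). It was higher with LPS in 5 of 5 batches at either age.

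The cytoplasmic ERK phosphatases went the other way. *Dusp7* fell in young cells from 50.9, 61.4, 62.0, 65.7 and 69.4 CPM in libraries 1 to 5 to 29.6, 30.5, 31.3, 35.7 and 36.5 CPM (log2 fold change -0.92 ± 0.075, edgeR adjusted p = 2.84e-10). In aged cells it fell from 62.9, 59.4, 54.3, 60.4 and 61.9 CPM to 44.9, 40.4, 43.5, 41.0 and 42.7 CPM (log2 fold change -0.49 ± 0.073, edgeR adjusted p = 5.80e-06). The untreated levels of both ages overlapped, and with LPS every aged library lay above every young one.

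*Dusp6*, a transcript widely used as a readout of ERK activity, fell as well. Young libraries went from 6.90, 9.46, 13.8, 13.3 and 13.0 CPM to 5.63, 5.47, 4.34, 4.70 and 6.34 CPM (log2 fold change -1.10 ± 0.16, edgeR adjusted p = 3.29e-06). Aged libraries went from 9.82 to 11.7 CPM without LPS to 5.42 to 8.00 CPM with it (log2 fold change -0.67 ± 0.16, edgeR adjusted p = 9.27e-04). Young untreated library 1 was the lowest of its group for both *Dusp6* and *Dusp7* and the highest for *Dusp1*.

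**Figure D2:**
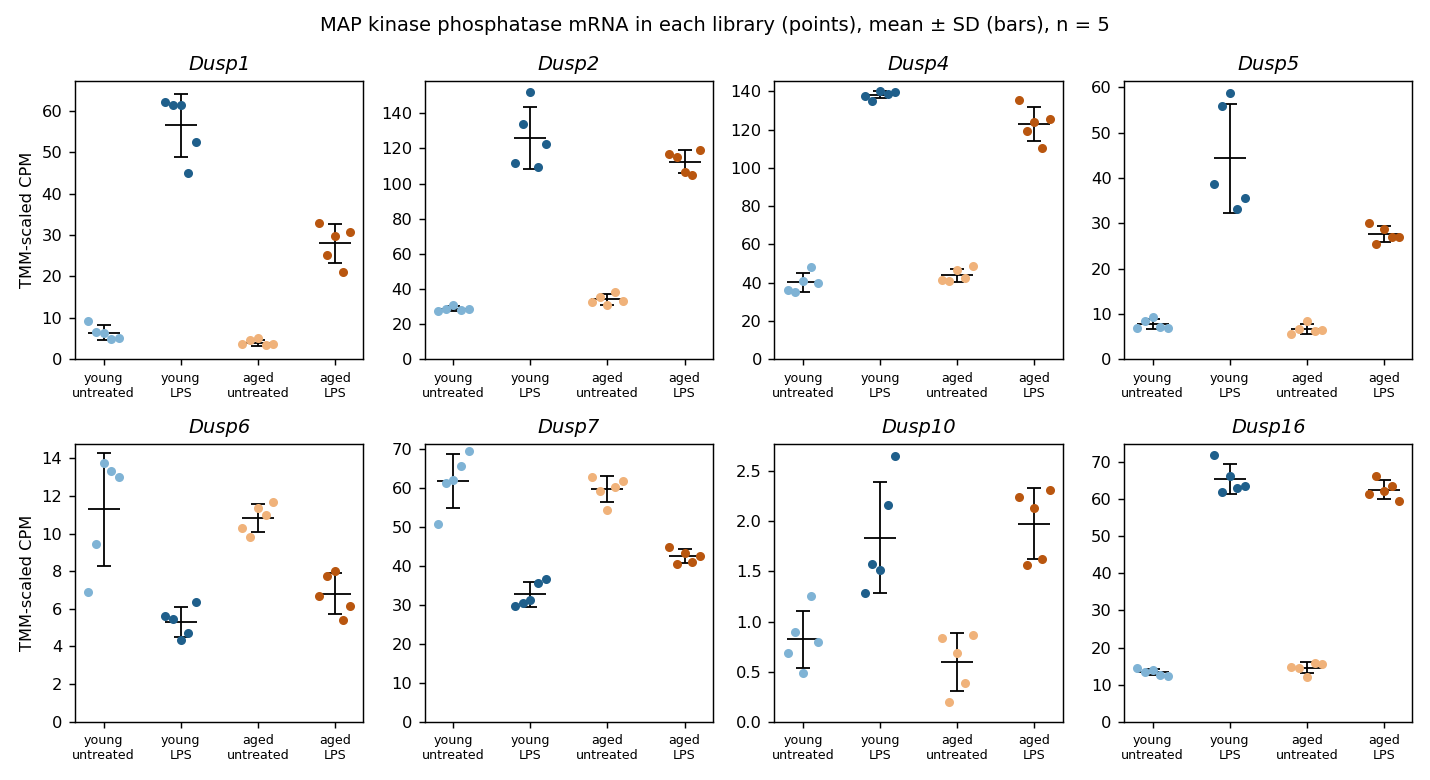
TMM-scaled CPM of the 8 genes in each of the 20 libraries (vertical axis, linear from 0) by group (horizontal axis); points are libraries and bars give mean ± SD, n = 5. LPS-treated points lie above all untreated points of the same age in 6 panels and below them in the panels of *Dusp6* and *Dusp7*.

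Without LPS, 1 of the 8 genes differed between aged and young cells, against 11.5% of all tested genes (3.71% higher and 7.81% lower). *Dusp1* was lower in aged cells, with means of 3.97 ± 0.72 against 6.40 ± 1.75 CPM (SD, n = 5) (log2 fold change -0.68 ± 0.18, edgeR adjusted p = 0.0181). It was lower in 5 of 5 batches, with log2 differences from -1.34 to -0.32. The groups overlapped for all 8 genes, where 10.4% of all genes were apart. The call of *Dusp1* changed when single libraries were left out. Without young untreated library 1, which had the highest level, the log2 fold change was -0.52 (edgeR adjusted p = 0.0660), and without aged untreated library 4 it was -0.62 (edgeR adjusted p = 0.0576). It was also lost without batch 1 (edgeR adjusted p = 0.108) or batch 2 (edgeR adjusted p = 0.0761) in all 4 groups. Over 33 alternatives the adjusted p ranged from 0.00189 to 0.108.

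The other 7 genes did not pass the test without LPS. *Dusp2* came closest (log2 fold change 0.24 ± 0.082, edgeR adjusted p = 0.0580), with higher levels in aged cells in 4 of 5 batches. DESeq2's Wald test put its adjusted p at 0.0408, and the range over 33 alternatives was 0.0121 to 0.231. *Dusp4* (log2 fold change 0.13 ± 0.073), *Dusp16* (0.11 ± 0.073), *Dusp7* (-0.051 ± 0.071) and *Dusp6* (-0.062 ± 0.15) had estimates close to 0. *Dusp5* (log2 fold change -0.21 ± 0.17) was lower in aged cells in 5 of 5 batches, and the estimate for *Dusp10* (-0.46 ± 0.33) was the least precise.

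With LPS, 3 of the 8 genes differed between aged and young cells, 2 lower and 1 higher, against 29.0% of all genes (14.0% higher and 15.0% lower). *Dusp1* was 2.02-fold lower in aged cells, with 27.96 ± 4.71 against 56.5 ± 7.65 CPM (log2 fold change -1.01 ± 0.13, edgeR adjusted p = 6.77e-06). *Dusp5* was 1.61-fold lower, with 27.7 ± 1.82 against 44.4 ± 12.1 CPM (log2 fold change -0.68 ± 0.14, edgeR adjusted p = 5.91e-04). *Dusp7* was 1.30-fold higher, with 42.5 ± 1.83 against 32.8 ± 3.16 CPM (log2 fold change 0.37 ± 0.076, edgeR adjusted p = 6.65e-04). These are the 3 genes whose aged and young libraries did not overlap, where 14.8% of all genes were apart, and the difference had the same sign in 5 of 5 batches for each. Each passed the test in all 33 alternatives.

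Among the genes that did not pass with LPS, *Dusp4* was lower in aged cells in 5 of 5 batches (log2 fold change -0.17 ± 0.069, edgeR adjusted p = 0.0719). It passed in 5 of 33 alternatives, among them DESeq2's Wald test (adjusted p = 0.0466, range over the alternatives 0.0328 to 0.346). The log2 fold change was -0.16 ± 0.076 for *Dusp2* (edgeR adjusted p = 0.117) and 0.36 ± 0.17 for *Dusp6* (edgeR adjusted p = 0.118). *Dusp16* (-0.061 ± 0.062) and *Dusp10* (0.098 ± 0.25) lay within 1 standard error of 0.

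Whether age changed the size of the LPS response itself was tested by the interaction of age and LPS, in which 6.39% of all genes were called (4.12% higher and 2.27% lower). It was called for 2 of the 8. The fall of *Dusp7* was smaller in aged cells, by 0.43 ± 0.10 on the log2 scale (edgeR adjusted p = 0.0149). Within batches the response was -1.004 to -0.78 in young and -0.56 to -0.32 in aged cells, so the ranges were apart. The rise of *Dusp2* was smaller in aged cells, with a difference of -0.41 ± 0.11 (edgeR adjusted p = 0.0309) and batch responses of 1.96 to 2.29 in young and 1.46 to 1.85 in aged cells.

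Both calls changed when libraries were left out. *Dusp7* passed whenever a single library was left out, but not without batch 2 (edgeR adjusted p = 0.118) or batch 3 (edgeR adjusted p = 0.0979) in all 4 groups. *Dusp2* lost its call on leaving out any 1 of 8 libraries, young untreated 1, 2 and 4, young LPS-treated 2 and 3, aged untreated 2 and 4 and aged LPS-treated 4 (edgeR adjusted p 0.0523 to 0.0670), and without batch 2, 4 or 5 (edgeR adjusted p 0.0783 to 0.221). Its adjusted p over 32 alternatives ranged from 0.00789 to 0.221, and that of *Dusp7* from 0.00226 to 0.118.

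For the other 6 genes the interaction did not pass. *Dusp1*, the gene with the largest gap between aged and young LPS-treated cells, had an interaction of -0.33 ± 0.23 (edgeR adjusted p = 0.487). Its rise was smaller in aged cells in 4 of 5 batches, and the estimate ranged from -0.55 to -0.21 over 32 alternatives. Its level was also lower in aged cells before LPS, a call that some left-out libraries removed. *Dusp4* (-0.30 ± 0.10, edgeR adjusted p = 0.0808) and *Dusp5* (-0.47 ± 0.22, edgeR adjusted p = 0.234) had a smaller rise in aged cells in 5 of 5 batches. DESeq2's Wald test called *Dusp4* (adjusted p = 0.0317, range over 32 alternatives 0.0135 to 0.282). *Dusp6* (0.43 ± 0.23, edgeR adjusted p = 0.313) fell less in aged cells in 4 of 5 batches, *Dusp10* (0.56 ± 0.42, edgeR adjusted p = 0.521) rose more in 4 of 5 and *Dusp16* (-0.18 ± 0.096, edgeR adjusted p = 0.334) rose less in 4 of 5.

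**Figure D3:**
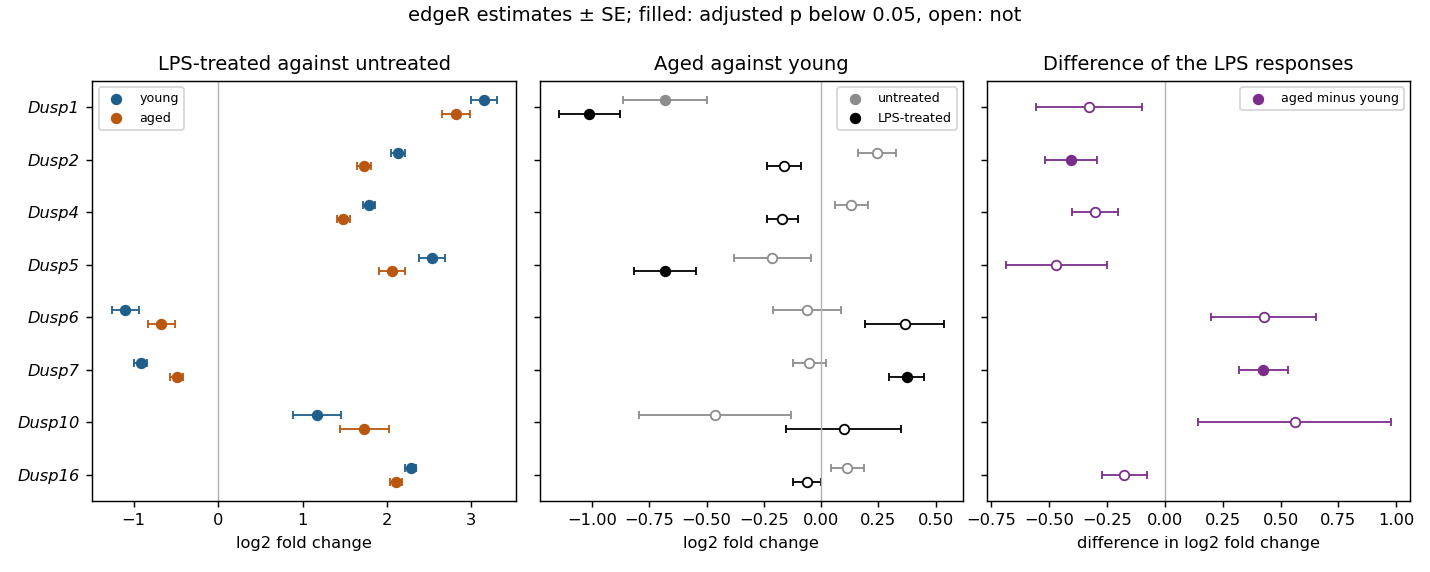
log2 fold changes (horizontal axes) of the 8 genes from edgeR, with standard errors as bars, for LPS against no LPS at each age (left), aged against young in each state (middle) and the aged minus the young LPS response (right); filled points passed an adjusted p of 0.05. All points at left are filled, at right only those of *Dusp2* (-0.41) and *Dusp7* (0.43).

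Levels of different genes were compared only per kb of exon, as RPKM from TMM-scaled CPM and the union of annotated exons. For *Dusp1* and *Dusp10* the union includes exons upstream of the RefSeq start site, since the annotated genes reach chr17:26562128 and chr1:184013302. Where those exons are not used, the RPKM and shares of these genes come out too low. The union of *Dusp16* was the longest of the 8, with 7798 bases in 10 exons, and its RPKM and shares depend on that length in the same way. Which exons are used in these cells was not tested. In untreated cells *Dusp7*, *Dusp4* and *Dusp2* made up most of the mRNA of the 8 genes. In young untreated cells their means were 18.4 ± 2.07, 14.6 ± 1.87 and 14.3 ± 0.69 RPKM, and each overlapped the next in this order. *Dusp6* (3.60 ± 0.95 RPKM), *Dusp5* (3.10 ± 0.43), *Dusp1* (1.93 ± 0.53) and *Dusp16* (1.72 ± 0.11) followed, again each overlapping the next, and *Dusp10* was last at 0.27 ± 0.094 RPKM. In aged untreated cells *Dusp7* (17.8 ± 0.99 RPKM), *Dusp2* (16.9 ± 1.46) and *Dusp4* (16.0 ± 1.25) also overlapped in turn. At these exon lengths *Dusp1* (1.20 ± 0.22 RPKM) lay below *Dusp16* (1.87 ± 0.19) without overlap, an order that depends on the lengths taken for *Dusp1* and *Dusp16*.

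With LPS, *Dusp2* and *Dusp4* came first and *Dusp7* stood lower in the order. In young LPS-treated cells *Dusp2* stood at 62.8 ± 8.84 and *Dusp4* at 50.5 ± 0.71 RPKM, without overlap, followed by *Dusp5* (17.9 ± 4.88) and *Dusp1* (17.1 ± 2.31), which overlapped. *Dusp7* (9.76 ± 0.94 RPKM) overlapped *Dusp16* (8.37 ± 0.52), and *Dusp6* (1.69 ± 0.25) and *Dusp10* (0.60 ± 0.18) were lowest. In aged LPS-treated cells *Dusp2* (56.2 ± 3.26) and *Dusp4* (44.9 ± 3.32) were again first, but *Dusp7* (12.7 ± 0.55) came before *Dusp5* (11.2 ± 0.74), which it overlapped, and *Dusp1* (8.44 ± 1.42). *Dusp16* (8.02 ± 0.33 RPKM) overlapped *Dusp1*, and *Dusp6* (2.17 ± 0.35) and *Dusp10* (0.65 ± 0.12) were last.

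As a share of the summed RPKM of the 8 genes, *Dusp7* went from 31.7% ± 2.08 to 5.83% ± 0.91 in young cells and from 29.6% ± 1.55 to 8.79% ± 0.33 in aged cells. *Dusp1* went from 3.40% ± 1.20 to 10.1% ± 1.06 in young and from 2.00% ± 0.40 to 5.83% ± 0.71 in aged cells. The sum was 58.0 ± 4.13 RPKM in young untreated, 169 ± 14.3 in young LPS-treated, 60.2 ± 1.67 in aged untreated and 144 ± 7.99 RPKM in aged LPS-treated cells.

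**Figure D4:**
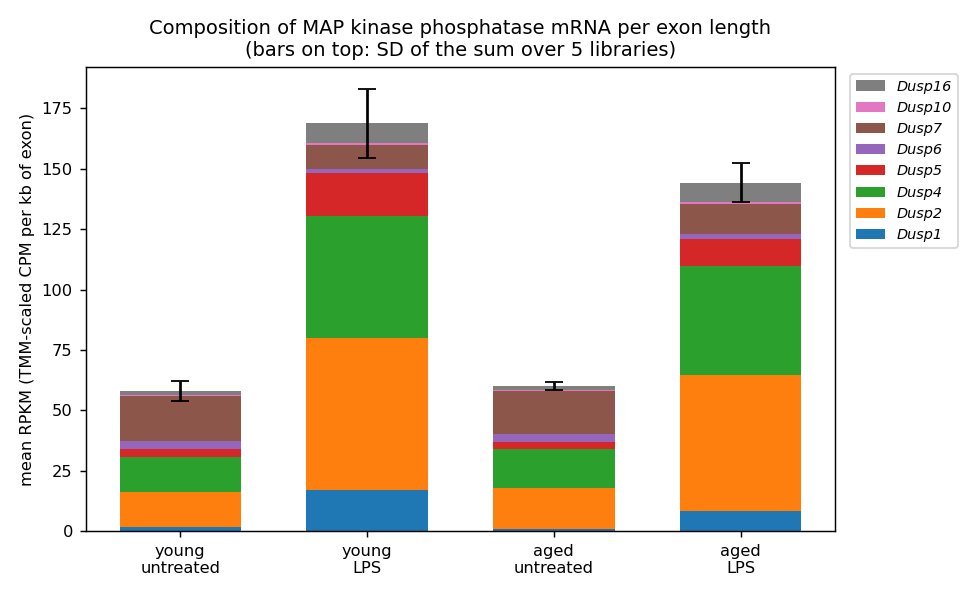
Mean RPKM of the 8 genes stacked by group (vertical axis, linear from 0); colours are genes and the bars on top give the SD of the sum over 5 libraries. The stacks reach 58.0, 169, 60.2 and 144 RPKM from left to right, and the *Dusp7* layer is thinner in the LPS-treated groups.

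The genes with the most similar pattern were ranked by Pearson's r of log2 CPM with each of the 8 over the 20 libraries, given as a description since the libraries fall into 4 groups that LPS sets apart and share their depth and scaling. Closest to *Dusp1* were *Ninj1* (r = 0.996), *Mbnl2* (0.995) and *App* (0.994), and closest to *Dusp16* were *Pip5k1b* (0.998), *Ehd1* (0.995) and *Ppp4r2* (0.994). *Ehd1* (r = 0.992), *Plpp1* (0.992) and *Camk2d* (0.991) were closest to *Dusp2*, and *Camk2d* (0.994), *Cemip2* (0.993) and *Riox2* (0.992) to *Dusp4*. *Dusp5* was most like *Pik3ap1*, *Slc23a2* and *Diaph1* (r = 0.990, 0.990 and 0.989), and *Dusp10* most like *Nmt1*, *Hoxb4* and *Bcl10* (0.921, 0.914 and 0.914). *Dusp7* was most like *Zfpm1*, *E2f8* and *Foxo1* (r = 0.980, 0.978 and 0.977). *Dusp7* itself (r = 0.912) and *Chn2* (0.909) were among the 3 genes most like *Dusp6*.

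Other phosphatases of the dual-specificity family and the MAP kinase modules were read from lists of symbols. The counts of every list below are of called genes. Over all tested genes LPS gave 31.2% higher and 33.5% lower in young cells, and 27.5% higher and 26.9% lower in aged cells. A count near these shares does not set a list apart. Of 16 other dual-specificity phosphatases 12 were tested, of which 3 rose and 2 fell with LPS in young cells and 3 rose and 3 fell in aged cells (median log2 fold changes 0.068 and 0.025). *Dusp8*, a JNK and p38 phosphatase of the same subfamily as *Dusp10* and *Dusp16*, was near the floor without LPS. It had 1 to 14 counts in young and 0 to 8 in aged untreated libraries, with 2 of 5 libraries of each age at or below 3 counts. With LPS it had 9.78 to 14.2 CPM in young and 7.90 to 16.2 CPM in aged cells (edgeR log2 fold changes 4.93 ± 0.35 and 5.58 ± 0.37, adjusted p = 2.49e-11 and 1.86e-11). *Dusp18* (log2 fold change -0.87 ± 0.15 in young, edgeR adjusted p = 1.91e-05) and *Dusp27* (-1.56 ± 0.39, edgeR adjusted p = 0.00144) fell. *Dusp27* had 2 to 9 counts in young LPS-treated libraries, with 2 of 5 at or below 3 counts.

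The MAP kinases are the substrates of these phosphatases. Of 11 MAP kinases 7 were tested, and with LPS 1 rose and 2 fell in young cells and 1 rose and 1 fell in aged cells. *Mapk3* (ERK1) fell in young cells (log2 fold change -0.55 ± 0.076, edgeR adjusted p = 1.17e-06), *Mapk14* (p38 alpha) fell (-0.41 ± 0.078, edgeR adjusted p = 9.43e-05) and the atypical kinase *Mapk6* rose (0.54 ± 0.057, edgeR adjusted p = 2.30e-08). *Mapk3* was lower in aged than in young untreated cells (log2 fold change -0.48 ± 0.075, edgeR adjusted p = 2.20e-04), and its interaction was 0.40 ± 0.11 (edgeR adjusted p = 0.0285). Of 7 MAP kinase kinases 4 rose and 1 fell in young and 3 rose and 1 fell in aged cells. *Map2k6* (MKK6), which activates p38, had the largest change of the list and fell by 1.76 ± 0.26 in young and 1.45 ± 0.23 in aged cells on the log2 scale (edgeR adjusted p = 2.69e-06 and 1.45e-05), from 23 to 52 counts per library in young untreated to 5 to 12 in young LPS-treated cells. *Map2k1* (MEK1), which activates ERK, rose by 0.99 ± 0.063 in young and 0.61 ± 0.063 in aged cells on the log2 scale (edgeR adjusted p = 4.29e-12 and 2.61e-08), with an interaction of -0.38 ± 0.089 (edgeR adjusted p = 0.0117). *Map2k2* (MEK2) rose in young cells (log2 fold change 0.23 ± 0.046, edgeR adjusted p = 1.16e-04).

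Among 16 upstream kinases and their TAB partners 5 rose and 6 fell in young cells, and 3 rose and 5 fell in aged cells. *Map3k8* (TPL2), the kinase that links Toll-like receptors to ERK, rose 2.03 ± 0.14 and 2.00 ± 0.15 on the log2 scale in young and aged cells (edgeR adjusted p = 1.32e-11 and 7.77e-11). It was lower in aged cells both without (log2 fold change -0.51 ± 0.16, edgeR adjusted p = 0.0398) and with LPS (-0.53 ± 0.13, edgeR adjusted p = 0.00269). *Map3k1* (log2 fold change -0.87 ± 0.060, edgeR adjusted p = 1.78e-11) and *Map3k5* (-0.58 ± 0.11, edgeR adjusted p = 4.64e-05), kinases upstream of JNK and p38, fell in young cells. Of 10 kinases activated by MAP kinases 4 rose and 5 fell in young cells, and 4 rose and 4 fell in aged cells. *Mapkapk2*, the p38 effector that phosphorylates tristetraprolin, rose by 1.98 ± 0.074 in young cells (edgeR adjusted p = 4.76e-16), whereas *Rps6ka5* (-1.58 ± 0.092, edgeR adjusted p = 8.33e-13) and *Mknk2* (-1.21 ± 0.092, edgeR adjusted p = 8.75e-11) fell. The interaction was positive for *Rps6ka5* (0.48 ± 0.13, edgeR adjusted p = 0.0265) and *Mknk2* (0.54 ± 0.13, edgeR adjusted p = 0.0130), so both fell less in aged cells.

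Among transcripts that respond to ERK, 11 of 12 were tested, and 5 rose and 2 fell with LPS at either age. The median log2 fold changes of this list were 0.030 in young and 0.50 in aged cells. *Ier3* (log2 fold change 3.58 ± 0.083 in young), *Phlda1* (3.31 ± 0.28) and the AP-1 subunit *Fosl1* (3.29 ± 0.15) rose in young cells, with edgeR adjusted p values of 4.07e-19, 6.70e-10 and 1.70e-14. The rise of *Phlda1* starts from only 6 to 15 counts in young untreated libraries. Of 7 Sprouty and Spred genes, which encode inhibitors of the Ras to ERK route, 4 were tested, of which 2 rose in young and 3 in aged cells. *Spred1* (log2 fold change 0.65 ± 0.081, edgeR adjusted p = 3.12e-07) and *Spry2* (0.45 ± 0.11, edgeR adjusted p = 7.76e-04) rose in young cells. Of 6 tyrosine and PP2C-type phosphatases of MAP kinases 4 were tested, and 2 rose and 1 fell with LPS at either age. *Ppm1d*, a phosphatase of p38, fell in young cells (log2 fold change -0.66 ± 0.094, edgeR adjusted p = 1.84e-06), while *Ppm1b* (0.38 ± 0.047, edgeR adjusted p = 2.25e-07) and *Ppm1a* (0.12 ± 0.048, edgeR adjusted p = 0.0302) rose.

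Of 6 genes for proteins that bind AU-rich elements, 3 rose and 2 fell in young cells, and 4 rose and 2 fell in aged cells. *Zfp36* (tristetraprolin) rose by 1.46 ± 0.12 in young and 0.74 ± 0.12 in aged cells on the log2 scale (edgeR adjusted p = 4.35e-10 and 2.56e-05), and its interaction was -0.72 ± 0.17 (edgeR adjusted p = 0.0135). With LPS it was lower in aged than in young cells (log2 fold change -1.07 ± 0.12, edgeR adjusted p = 1.19e-06), beside the -1.01 ± 0.13 of *Dusp1*. *Zfp36l1* fell in young cells (log2 fold change -1.62 ± 0.12, edgeR adjusted p = 7.39e-11). *Hnrnpd* (AUF1) rose (log2 fold change 0.32 ± 0.079, edgeR adjusted p = 0.00109). Age calls of the genes named from these lists went both ways. Without LPS *Fosl1* was higher in aged cells (log2 fold change 0.72 ± 0.16, edgeR adjusted p = 0.00648). *Mapk3*, *Map3k8*, *Rps6ka5* and *Ier3* were lower there. Higher in aged cells with LPS were *Ppm1d* (0.47 ± 0.095), *Mknk2* (0.41 ± 0.092) and *Ppm1a* (0.13 ± 0.048). *Map2k1*, *Map3k5*, *Map3k8*, *Mapkapk2*, *Ier3*, *Phlda1*, *Ppm1b* and *Zfp36* were lower with LPS.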

How the data were processed

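Strand-specific mRNA libraries were made by the authors, who sequenced paired-end reads, aligned them to mouse GRCm38 with STAR 2.6.1d and counted them per Ensembl gene with featureCounts 1.5.1. They deposited raw counts, and settings for strand and overlapping genes are not given in the sources used here. Symbols, positions and exon lengths came from GENCODE M21 (GRCm38), promoter windows from RefSeq.

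Counts of all 20 libraries were fitted with edgeR 4.0.16 (quasi-likelihood F-test, TMM, filterByExpr, group as the only factor; R 4.3.3), with Benjamini-Hochberg adjustment over 12799 genes. Standard errors are the log2 fold change divided by the square root of F. A prior count of 2 entered log2 CPM, and the floor of detection was 3 counts (0.165 to 0.296 CPM, counting error only). The fits were tested on simulated data with known LPS changes.

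The 8 genes and all lists were chosen with earlier results of these data known. All 8 genes are named in every comparison, and from each list the 3 genes with the largest change among those called in the LPS response of young cells. The labels give the replicate numbers as batches of 1 culture per group. After subtraction of group means, cultures with a shared number correlated on average at 0.146 over genes (-0.214 to 0.394). Within an age the correlations were 0.122 to 0.394. Between young and aged cultures they were -0.214 to -0.042 for number 1, -0.0079 to 0.052 for number 2 and 0.068 to 0.275 for numbers 3 to 5. Batch counts of aged against young cells rest on this weaker pairing. No library was a duplicate, since chi-square divided by its degrees of freedom was 2.42 to 26.9 for pairs within a group. P-values measure the spread between these cultures, which may be technical in part. If the aged cultures share 1 long-term cultivation, the spread between cultivations is not in them. Alternatives included DESeq2 1.42.0. A gene that the rule on similar patterns names is not reported here.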

Additional observations from a re-analysis of the deposited data

Results flagged for a closer look

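Aged and young cells differed in the size of the LPS response, by the interaction term of edgeR's quasi-likelihood test, for 2 of the 8 genes. The rise of *Dusp2* differed by -0.41 on the log2 scale (edgeR adjusted p = 0.0309), smaller in aged cells in 5 of 5 batches. The fall of *Dusp7* differed by 0.43 (edgeR adjusted p = 0.0149), smaller in aged cells in 5 of 5 batches. No library stood apart by Dixon's criterion (critical ratio 0.71) in any of 32 gene and group combinations, where chance alone sets apart about 1 group in 20.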

How the results depend on the processing

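All 8 genes were called in the LPS response of young and of aged cells under every alternative that could test them; requiring at least 10 counts in every library left *Dusp10* untested. With LPS, the count of genes that differed between aged and young cells was 3 to 4 when libraries were left out, and 4 with DESeq2's Wald test and with only the groups compared (*Dusp4* joined, adjusted p = 0.0466 and edgeR adjusted p = 0.0452) and with library sizes alone (*Dusp6* joined, edgeR adjusted p = 0.0486). Without LPS, the 1 called gene became 2 with DESeq2's Wald test, with library sizes alone and with only the groups compared (*Dusp2* joined *Dusp1* in each), 0 at an adjusted p below 0.01, and 0 to 2 when libraries were left out. In the interaction the 2 called genes became 3 with DESeq2's Wald test (*Dusp4* joined, adjusted p = 0.0317), 1 with library sizes alone, 0 at an adjusted p below 0.01, and 0 to 2 when libraries were left out. The replicate block changed no call among the 8 genes; with it the interaction of *Dusp7* had an edgeR adjusted p of 0.00908 and that of *Dusp2* of 0.0326.

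Of 1306 single values 1259 kept their direction and their side of the threshold and 6 turned sign, all of them not called. *Dusp6* between untreated aged and young cells was 0.0039 without batch 3, 0.020 without young untreated library 3 and 0.0030 without young untreated library 4, within a range of -0.19 to 0.020 when libraries were left out. *Dusp10* between aged and young LPS-treated cells was -0.039 without batch 1 and -0.0031 without batch 3 (range -0.039 to 0.27), and *Dusp16* there was 0.020 with library sizes alone. The cause was not tested.

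Library sizes alone moved the median of all genes to -0.23 in the LPS response of young cells and -0.16 in that of aged cells, and the share of called genes that were higher from 48.2% to 27.3% and from 50.6% to 28.4%. That share went from 32.2% to 42.2% between untreated aged and young cells, from 48.3% to 70.1% with LPS and from 64.4% to 81.3% in the interaction. Over all genes the interaction called 818, or 1156 with the replicate block and 328 at an adjusted p below 0.01; untreated aged and young cells differed in 1475, or 622 at 0.01; with LPS 3717, or 2333 at 0.01. Leaving out batches gave 548 (without batch 2) to 1193 between untreated cells (954 to 981 without young untreated library 2 or 3 or aged untreated library 4 alone), 2156 (without batch 2) to 3563 with LPS and 189 (without batch 2) to 697 in the interaction. Counts over the gene lists were made with TMM scaling alone. *Dusp10*, *Dusp8* and *Dusp27* had libraries at or below 3 counts, which limits the precision of their values.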
